A study of Saccharomyces cerevisiae with 6 samples.

Results

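The genes of ergosterol synthesis and sterol handling were followed in low-Hsp90 cells of budding yeast. The set was taken by name and holds 34 genes, which were matched through their systematic ORF names to 34 of the 6377 rows of the array table, and each had a value on all 6 arrays. By role, 9 genes belong to the mevalonate part of the pathway, 16 to late ergosterol synthesis from farnesyl diphosphate onwards, 3 encode transcriptional regulators, and 6 serve sterol esters, sterol uptake and sterol binding. The data are mRNA ratios between cells grown with doxycycline (dox) at 5 µg/ml for 11 h and untreated cells. Both came from the strain TETp-HSC82 hsp82Δ arg4Δ lys5Δ car2Δ::URA3, labelled as R1158 background and described in the methods as S288C background, in which the only remaining Hsp90 gene, HSC82, is driven by a promoter that dox shuts off. In the first experiment of the methods, treated cells carried light arginine and lysine and untreated cells the heavy forms. In the second this was swapped. Cultures 1 and 2 were taken to be these experiments in that order. Each culture was measured on 3 technical arrays, so the number of independent cultures is 2. No dox-treated cells with HSC82 under its own promoter were measured, so the loss of Hsp90 and dox itself cannot be told apart, and neither can the treatment and the dye, since the treated cells had the same dye on every array.

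Ergosterol is the main sterol of yeast membranes, where it takes the place that cholesterol has in animals. Its synthesis starts from acetyl-CoA, passes through mevalonate to farnesyl diphosphate, which also feeds other isoprenoids, and continues over squalene and lanosterol in a chain of endoplasmic reticulum enzymes, several of which need oxygen and heme. The zinc cluster factors Upc2 and Ecm22 activate many ERG genes when sterols run low. Surplus sterol is stored as steryl esters in lipid droplets, and sterol is taken up from the medium mainly when oxygen is lacking. No sequence of these genes or of their array probes was used here.

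The arrays held 6180 to 6353 values each, with medians between −0.03 and 0.02 and SDs from 0.40 to 0.61 on the log2 scale. HSC82 had log2 ratios of −6.43, −6.36 and −5.96 on the arrays of culture 1 and −5.48, −6.00 and −5.70 on those of culture 2, so the targeted gene was lower on 6 of 6 arrays (mean −5.99, standard error 0.16). All ratios below are log2 of dox-treated over untreated cells, averaged within each culture, and the values of the sterol genes are differences between conditions and not mRNA levels. A gene was called misregulated when the mean of both cultures changed by more than 1.5-fold (a log2 ratio beyond 0.58 in either direction) with an unadjusted p below 0.05 in limma fitted over all 6290 tested genes, and Benjamini-Hochberg adjusted p-values over all these genes are printed.

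Among the 34 sterol genes, 3 were misregulated in low-Hsp90 cells. HES1 and ERG2 were higher, ARE2 was lower, and the other 31 did not meet the criterion. Of all 6290 genes tested, 10.5% met the same criterion, so the sterol genes were called no more often than genes at large. By direction, 2 sterol genes were higher against a background of 5.74%, and 1 was lower against 4.74%. The sterol genes had a median ratio of −0.10 in the first and 0.04 in the second culture, beside −0.02 and 0.02 for all genes tested. The 95% interval of the mean ratio stayed inside 1.5-fold in either direction for 21 of the 34 genes (61.8%), and the same held for 59.8% of all genes. In the other 13 genes, the 3 called genes among them, the interval reached or passed 1.5-fold, so such a change was not excluded. Standard errors and intervals come from limma, which pools variance over all genes, so they are not the spread of a gene's 2 cultures alone.

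**Figure D1:**
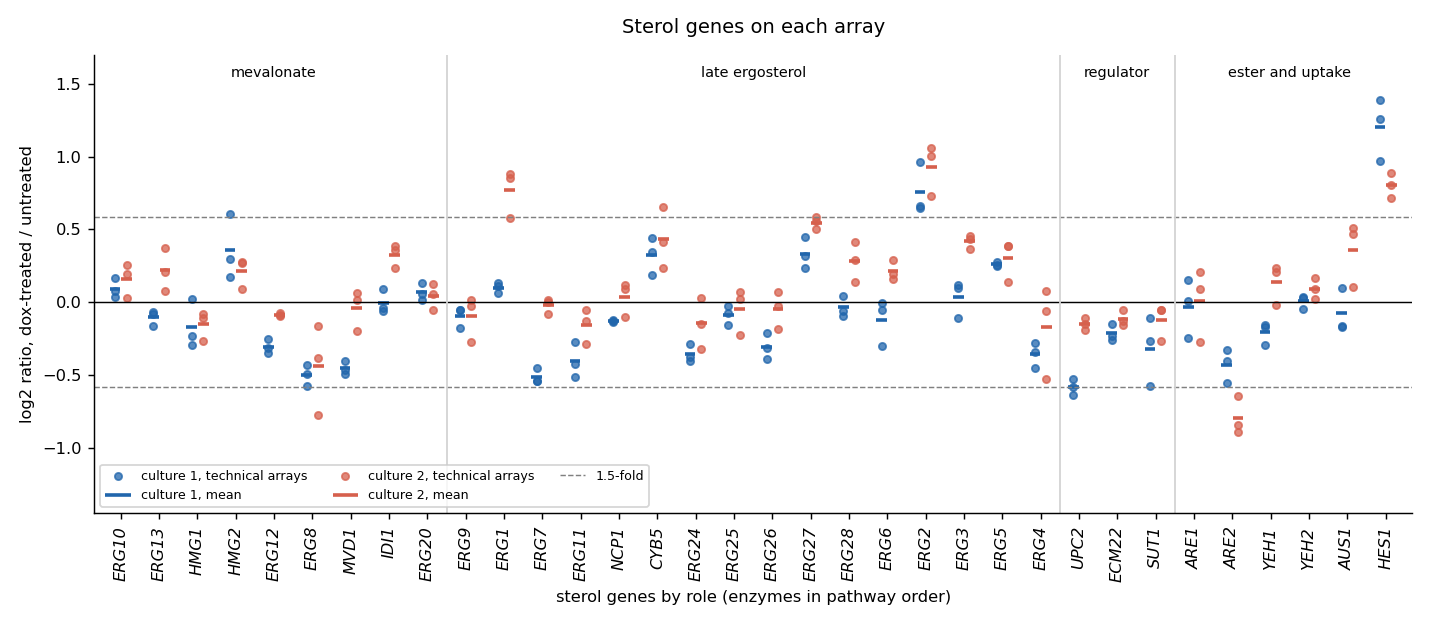
Log2 ratio of dox-treated over untreated cells (y axis) for the 34 sterol genes (x axis, by role), with a point for each technical array, a bar for each culture mean and dashed lines at 1.5-fold. HES1 and ERG2 lie above the upper line in both cultures, and ARE2 lies below the lower line in culture 2.

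HES1 (YOR237W), which encodes a homolog of the mammalian oxysterol-binding protein, had the highest ratio of the set. It was 1.26, 1.39 and 0.97 on the arrays of culture 1 and 0.81, 0.72 and 0.89 on those of culture 2. All 6 arrays lay above 0.58, and culture 1 was the higher culture with no overlap between the arrays. The mean was 1.00 (2.01-fold, standard error 0.14, 95% interval 0.64 to 1.37), with an adjusted p of 0.0343 from limma, and 98.1% of all genes had a mean no higher than that of HES1.

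ERG2 (YMR202W), the sterol isomerase that shifts a double bond within the ring system, was the only enzyme of ergosterol synthesis to pass the criterion. Its ratio was 0.65, 0.66 and 0.96 in culture 1 and 1.01, 0.73 and 1.06 in culture 2. The arrays of the cultures overlapped and every one of them lay above 0.58. The mean was 0.84 (1.80-fold, standard error 0.12, 95% interval 0.54 to 1.15, adjusted p = 0.0343 from limma). ERG6, the methyltransferase that acts just before ERG2 in the pathway, had a mean of 0.05, and ERG3, the desaturase that acts just after it, had 0.23, and neither was called.

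ARE2 (YNR019W), the acyltransferase that makes most of the steryl ester in aerobic cells, had the lowest ratio of the set. It was −0.40, −0.55 and −0.33 in culture 1 and −0.84, −0.64 and −0.89 in culture 2. Only the arrays of culture 2 passed 1.5-fold, and they did not overlap with those of culture 1. The mean was −0.61 (1.53-fold lower, standard error 0.14, 95% interval −0.96 to −0.26), close to the threshold of the criterion, and its adjusted p was 0.0672 in limma. Without the second array of culture 1 the mean was −0.58 and the criterion was no longer met.

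With the adjusted p in place of the unadjusted one, HES1 and ERG2 remained among the 34 genes, while 5.36% of all genes passed. Neither passed with each array centered on its median, where both had an adjusted p of 0.0933 in limma and only 2 of all genes passed. This was also so when certain single arrays were left out, and there the loss was general. With every array 337 of all genes passed. The number was 59, 92, 103 and 74 without the first or the third array of culture 1 or the first or the second of culture 2, respectively. With these arrays left out in that order, the lowest adjusted p among the sterol genes in limma was 0.0591, 0.0599, 0.0535 and 0.0567. Both genes still passed without the second array of culture 1 or the third of culture 2, as did 275 and 383 of all genes. The means of both genes moved little in these fits, between 0.79 and 0.90 for ERG2 and between 0.96 and 1.06 for HES1 with an array left out.

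**Figure D2:**
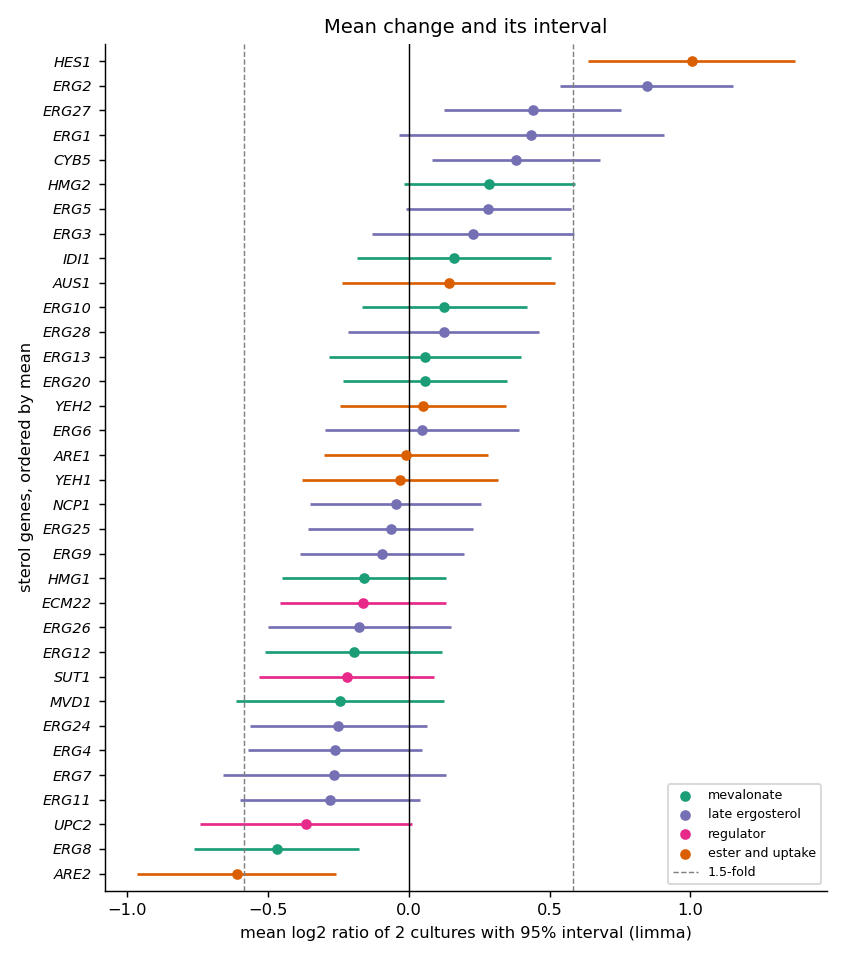
Mean log2 ratio over the 2 cultures with its 95% interval from limma (x axis) for each sterol gene (y axis, ordered by the mean), colored by role, with dashed lines at 1.5-fold. The interval of HES1 (0.64 to 1.37) lies beyond the line, and those of ERG2 and ARE2 cross it without reaching 0.

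In the mevalonate part, none of the 9 genes was misregulated, and their means ran from −0.47 to 0.29. Their median changed sign, from −0.10 in the first culture to 0.04 in the second. On single arrays it had both signs within each culture, with −0.08, −0.07 and 0.02 in culture 1 and −0.05, 0.13 and 0.06 in culture 2. The interval stayed inside 1.5-fold for 6 genes, and those of HMG2, ERG8 and MVD1 reached it. ERG8, phosphomevalonate kinase, came nearest to the criterion. Its ratio was −0.49, −0.43 and −0.57 in culture 1 and −0.77, −0.16 and −0.39 in culture 2. It was lower on 6 of 6 arrays, with a spread in culture 2 that spanned the values of culture 1. Over both cultures it averaged −0.47 with a standard error of 0.12 and an adjusted p of 0.0755 in limma.

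The other kinase, ERG12, was also lower on 6 of 6 arrays, with −0.35, −0.31 and −0.25 in culture 1 and −0.08, −0.09 and −0.09 in culture 2, and its mean of −0.20 did not pass. MVD1, the decarboxylase that completes isopentenyl diphosphate, had −0.45 in culture 1 and −0.04 in culture 2. IDI1, which interconverts the isoprene units, had −0.0048 and 0.33, and ERG13, the HMG-CoA synthase, had −0.10 and 0.22, so both changed sign between the cultures. ERG10, the thiolase of the first step, and ERG20, the farnesyl diphosphate synthase of the last, stayed near 0 with means of 0.13 and 0.06.

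HMG1 and HMG2 encode the paired isozymes of HMG-CoA reductase, the rate-controlling enzyme of the pathway. HMG1 had −0.29, −0.23 and 0.02 in culture 1 and −0.27, −0.08 and −0.11 in culture 2. HMG2 had 0.18, 0.30 and 0.61 in culture 1 and 0.09, 0.27 and 0.27 in culture 2. The ratio of HMG2 exceeded that of HMG1 on 6 of 6 arrays, by 0.53 in culture 1 and 0.36 in culture 2. Taken singly, neither gene was called, with means of −0.16 and 0.29 and adjusted p-values of 0.409 and 0.186 in limma. The difference of the pair was not tested beyond these counts, and cross-hybridization between the probes of similar genes was not tested either.

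Late ergosterol synthesis held 16 genes, of which ERG2 alone was misregulated. Their means ran from −0.28 to 0.84, and their median was −0.09 in culture 1 and 0.12 in culture 2. Without the fold threshold, ERG27 and CYB5 passed the unadjusted p in addition to ERG2, and 6 of all 34 sterol genes did so, with 29.1% among all genes. ERG27, the ketoreductase of the complex that removes the methyl groups, had 0.23, 0.32 and 0.45 in culture 1 and 0.58, 0.56 and 0.50 in culture 2. It was higher on 6 of 6 arrays and just under 1.5-fold in culture 2. The mean ratio of 0.44 had a standard error of 0.12 and an adjusted p of 0.0924 in limma. The genes of the partners of Erg27 in that complex had lower means, and their differences from ERG27 were not tested. ERG25, the methyl oxidase, had a mean of −0.06, ERG26, the decarboxylase, −0.18, and ERG28, the scaffold that tethers them, 0.12.

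CYB5, the cytochrome that passes electrons to several of these enzymes, had 0.44, 0.35 and 0.19 in culture 1 and 0.24, 0.41 and 0.66 in culture 2. It was higher on 6 of 6 arrays and averaged 0.38 over the cultures (adjusted p = 0.11 from limma, standard error 0.12). NCP1, the reductase that supplies the cytochrome P450 enzymes, had a mean of −0.05. Of those P450 enzymes, ERG11, the lanosterol demethylase and target of azole drugs, was lower on 6 of 6 arrays with −0.40 in culture 1 and −0.16 in culture 2, while ERG5, the desaturase of the side chain, was higher on 6 of 6 arrays with 0.26 and 0.30. Neither met the criterion, and the adjusted p-values were 0.212 and 0.18 in limma.

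ERG1, the squalene epoxidase, differed most between the cultures. Its ratio was 0.13, 0.11 and 0.06 in culture 1 and 0.58, 0.85 and 0.88 in culture 2. The arrays of the cultures did not overlap, and the mean of 0.44 had a wide interval (−0.03 to 0.91, adjusted p = 0.194 from limma). ERG7, the lanosterol synthase of the next step, had −0.45, −0.54 and −0.54 in culture 1 and 0.0041, −0.08 and 0.01 in culture 2. It was lower in culture 1 and near 0 in culture 2, and its mean of −0.27 did not pass. ERG9, the squalene synthase ahead of both, was −0.10 and −0.09. Of the remaining reductases, ERG24 had a mean of −0.25 and ERG4, which completes ergosterol, −0.26, both lower on 5 of 6 arrays and without a call.

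The 3 regulators were lower on 6 of 6 arrays each, as were 23.4% of all genes, and none met the criterion. UPC2 had −0.58, −0.53 and −0.63 in culture 1 and −0.19, −0.11 and −0.15 in culture 2. The arrays of culture 1 lay around 1.5-fold and apart from those of culture 2. The mean of UPC2 was −0.37 (standard error 0.15, 95% interval −0.74 to 0.01, adjusted p = 0.179 from limma). ECM22, the paralog of UPC2, had −0.21 in culture 1 and −0.11 in culture 2, and SUT1, a factor that promotes sterol uptake, had −0.32 and −0.12. The ratio of ECM22 minus that of UPC2 was 0.37 in culture 1 and 0.04 in culture 2, and above 0 on 5 of 6 arrays. The interval of UPC2 reached 1.5-fold, and those of ECM22 and SUT1 did not. Over the whole set, 7 genes were lower on all 6 arrays, namely ERG8, ERG12, ERG11, UPC2, ECM22, SUT1 and ARE2, and 8 were higher on all 6 (ERG10, HMG2, ERG1, CYB5, ERG27, ERG2, ERG5 and HES1), beside 23.6% of all genes.

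Among the 6 genes of sterol esters, uptake and binding, HES1 and ARE2 were called in opposite directions and the other 4 were not called, with means over both cultures between −0.03 and 0.14. ARE1, the second sterol acyltransferase, had 0.0054, 0.15 and −0.25 in culture 1 and −0.27, 0.21 and 0.09 in culture 2, with a mean of −0.01. Its ratio exceeded that of ARE2 on 6 of 6 arrays, by 0.40 in culture 1 and 0.80 in culture 2, and this difference was not tested. YEH1 and YEH2 encode steryl ester hydrolases and had means of −0.03 and 0.05. The ratio of YEH2 minus that of YEH1 was 0.21 in culture 1 and −0.05 in culture 2, and above 0 on 4 of 6 arrays. AUS1, a transporter of the ABC family for sterol uptake, had −0.17, −0.16 and 0.10 in culture 1 and 0.10, 0.47 and 0.51 in culture 2. Its mean was 0.14, with a standard error of 0.15, and the culture means of −0.08 and 0.36 differed in sign.

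The remaining genes of sterol traffic and control were counted from a list of 31, of which 30 were tested. The criterion was met by 3 of the 30. PDR11, which encodes the other ABC transporter of sterol uptake, was higher, with 0.73, 0.64 and 1.08 in culture 1 and 0.91, 0.68 and 0.92 in culture 2, and its mean of 0.83 had an adjusted p of 0.0343 in limma. NCR1, the yeast relative of the human Niemann-Pick C protein in the vacuole membrane, was higher with a mean of 0.66 (adjusted p = 0.0489). OSH6, a lipid transfer protein of the same family as HES1, was lower with a mean of −0.63 (adjusted p = 0.0524). The median of the 30 genes was −0.02, and the share called was again close to that of all genes (10.5%).

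**Figure D3:**
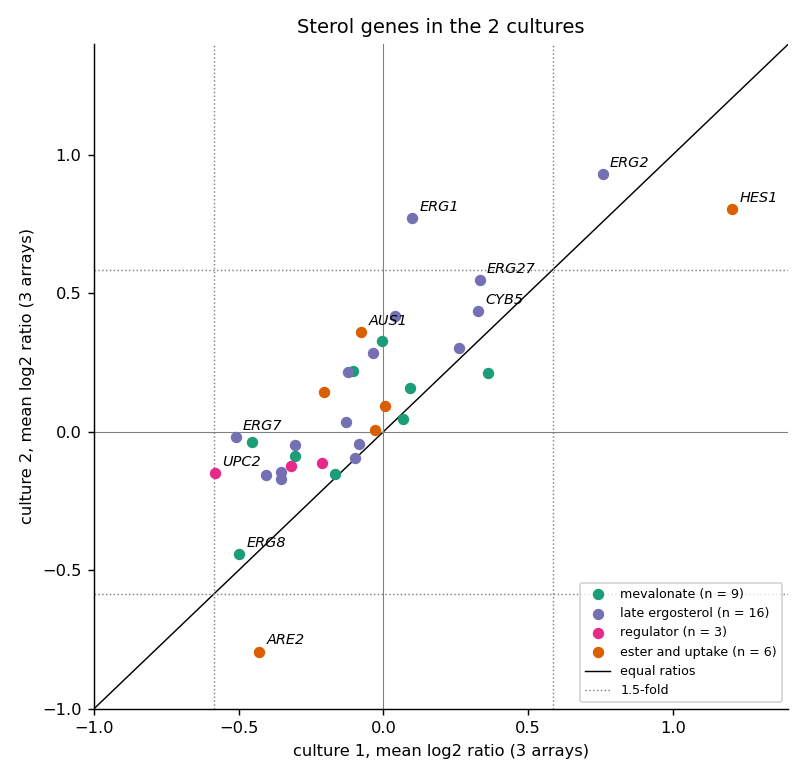
Mean log2 ratio in culture 1 (x axis) and culture 2 (y axis) for the 34 sterol genes, colored by role, with the line of equal ratios and dotted lines at 1.5-fold. Of the 34 points, 30 lie above the line of equal ratios, with ERG1 farthest from it, while ARE2 and HES1 lie below it.

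The cultures were next compared gene by gene, by limma over 3 technical arrays against 3, fitted over the 6241 genes with at least 2 values in each culture. This compares these cultures only, and the culture and the isotope label given to its treated cells cannot be told apart. ERG1 was the only member of the sterol gene set whose ratio differed by more than 1.5-fold with an adjusted p below 0.05. It was higher in culture 2 by 0.67 (standard error 0.10, adjusted p = 0.00251 from limma). Of all genes, 7.35% differed by the same rule, 2.76% higher and 4.60% lower in culture 2. In the list of other sterol traffic and control genes, ATF2 and PRY2 also differed by this rule. Culture 2 minus culture 1 was 0.78 for ATF2 (adjusted p = 0.021 from limma) and −0.84 for PRY2 (adjusted p = 0.00205 from limma). Without the fold threshold, 13 sterol genes differed, 11 of them higher in culture 2 and 2 lower, beside 22.3% of all genes in either direction, 12.4% higher and 9.98% lower. The 11 were ERG13, MVD1, IDI1, ERG1, ERG7, ERG28, ERG6, ERG3, UPC2, YEH1 and AUS1, so they came from every role. ERG7 was higher in culture 2 by 0.49 (adjusted p = 0.0042) and UPC2 by 0.43 (adjusted p = 0.00704), and the 2 genes lower in culture 2 were ARE2 and HES1.

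In 15 of the 34 sterol genes the 3 arrays of culture 2 all lay above those of culture 1, beside 24.4% of all genes. In 2 of the 34 they all lay below, beside 17.8% of all genes. By the culture means, 30 of the 34 genes had a higher ratio in culture 2, including 16 of 16 genes of late synthesis, against 56.4% of all genes. The shift was small. Its median was 0.19 over the sterol genes and 0.21 over the genes of late synthesis, beside 0.04 over all genes. For 8 sterol genes (23.5%) the sign of the ratio differed between the cultures, beside 25.9% of all genes. Of the others, 11 (32.4%) were higher in both cultures and 15 (44.1%) lower in both, beside 37.0% in each direction among all genes.

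**Figure D4:**
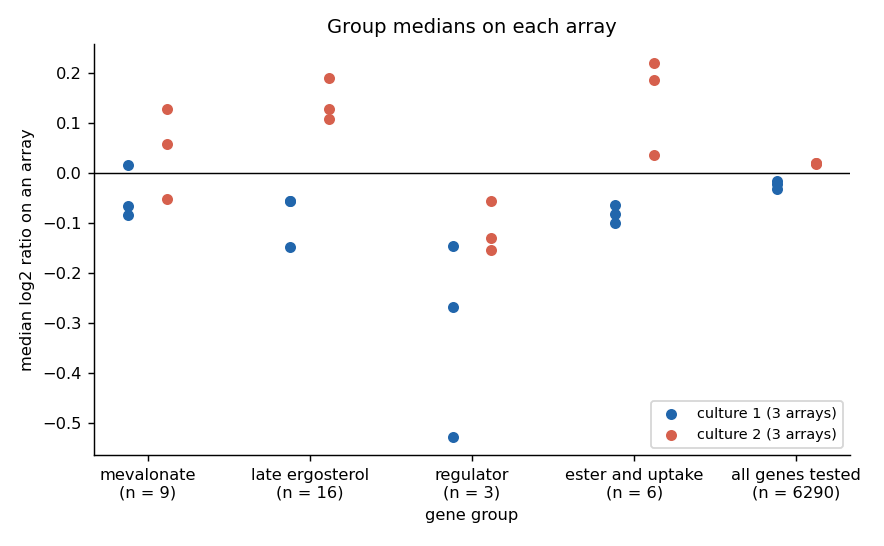
Median log2 ratio on each array (y axis) for the 4 role groups and for all genes tested (x axis), with 3 technical arrays per culture. The medians of late ergosterol synthesis lie below 0 on the arrays of culture 1 and above 0 on those of culture 2. So do those of the ester and uptake genes and, nearer to 0, those of all genes tested (−0.03 to −0.01 in culture 1 and 0.02 in culture 2). The medians of the regulators lie below 0 on all 6 arrays.

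The role groups were compared by their medians as a description. On the 6 arrays, the median of the regulators ran from −0.53 to −0.06. That of the mevalonate genes ran from −0.08 to 0.13, with both signs within each culture. The median of late ergosterol synthesis was −0.06, −0.05 and −0.15 in culture 1 and 0.13, 0.11 and 0.19 in culture 2. That of the ester and uptake genes was −0.08, −0.06 and −0.10 in culture 1 and 0.04, 0.22 and 0.19 in culture 2. Of the role groups, the regulators alone kept 1 sign in the medians of both cultures, with −0.32 and −0.12. The median over all genes tested also changed sign, from −0.02 in culture 1 to 0.02 in culture 2. Between the cultures, the ratios of the 34 genes had a Pearson correlation of 0.81 and a Spearman correlation of 0.83, beside 0.67 and 0.68 over all genes. These run across genes, which share the arrays and are not independent replicates.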

How the data were processed

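Total RNA of dox-treated and untreated cells was labeled with a different Alexa Fluor dye each and hybridized together to homemade oligonucleotide arrays. GeneSpring GX was used by the authors for a LOWESS normalization of every array, and the deposited values were read as log2 ratios, 1 for each probe on each array. Log base and direction are not stated with these values. The base was taken from the lowest value (−6.64, present 10 times and in no sterol gene), and the direction from the sample titles, with which the fall of HSC82 goes. Background correction and spot filters are not given in the sources used here, signal intensities were not analysed, and the number of independent cultures limits the precision. Locus tags in the R64 table were found for 5840 of the 6377 rows, and 6290 had a value in each culture.

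The 3 technical arrays of a culture were averaged. A two-sided test of the 2 averages against 0 was made in limma 3.58.1 (R 4.3.3) over all these rows. The methods give the 1.5-fold threshold and p below 0.05 but name no test. Intervals are limma's 95% intervals. Tests were checked on simulated data. All members, HSC82, and the called genes of 3 fixed lists (at most 6 of each) were named. The members and the lists were chosen with earlier results of these data known. Alternatives covered the call rule, replication unit, normalization, filter, left-out arrays and single cultures. Promoter motifs and protein data were not analysed here, and 0 columns were left unused.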

Additional observations from a re-analysis of the deposited data

Results flagged for a closer look

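ERG1 had a different ratio in the 2 cultures by the test of that difference. Its ratio in culture 2 was higher by 0.67 (limma over technical arrays, adjusted p = 0.00251), and it was higher than in untreated cells on 6 of 6 arrays. The difference remained with any single array left out and under scaling or quantile normalization. OSH6 had a value of −0.30 on the second array of culture 2 that stood apart from its other 5 arrays, which lay between −0.74 and −0.66. Of 43 genes examined in this way, 1 stood out, and chance flags about 1 in 20.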

How the results depend on the processing

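Treated and untreated cells were hybridized together, so every ratio already pairs them. No further pairing was possible because all arrays belong to 1 group of treated over untreated ratios. The alternatives were set with earlier results of these data known, and those that combine the adjusted p with another change, as well as the count of non-overlapping arrays, were chosen after seeing the data. HES1, ERG2 and ARE2 were called with the 6 arrays as replicates, with culture as a random block, under each normalization and with values on all arrays. The number of sterol genes called (3) was 1 at 2-fold and 6 without the fold, and 2 to 3 with an array left out. Higher genes (2) were 1 at 2-fold and 4 without the fold. Lower genes (1) were 0 with the adjusted p, at 2-fold and in culture 1 alone, 2 without the fold, and 0 to 1 with an array left out. By the adjusted p, 2 sterol genes passed, 3 with the 6 arrays as replicates or culture as a random block (ARE2 in addition), 0 with median centering and 0 to 2 with an array left out. Over all genes the 659 calls became 337 with the adjusted p, 181 at 2-fold, 1833 without the fold and 1076 in culture 1 alone. The median of the mevalonate genes was 0.06 over both cultures and −0.10 in culture 1 alone. The number of sterol genes that differed between the cultures (1) was 13 without the fold and 2 after quantile normalization, which added ERG2. No called gene changed its direction in any alternative. Where a count moved with the call rule the rule itself is the cause, and for the normalizations and left-out arrays the cause was not tested.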

Other observations

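Branches that draw on farnesyl diphosphate were counted from a list of 12 genes, of which 1 met the criterion, beside 10.5% of all genes tested. SRT1, a cis-prenyltransferase of dolichol synthesis, was higher, with 2.00, 1.76 and 2.14 in culture 1 and 1.62, 0.86 and 1.71 in culture 2. Its mean of 1.68 (3.20-fold, standard error 0.17, adjusted p = 0.0193 from limma) exceeded that of every sterol gene. The median of this list was 0.08.

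Of 12 hypoxic genes outside sterol synthesis, 4 met the criterion, 2 in each direction, beside 5.74% higher and 4.74% lower among all genes. OLE1, the fatty acid desaturase, had a mean of 0.76 (adjusted p = 0.0361 from limma) and was higher on 6 of 6 arrays. DAN1, a cell wall mannoprotein, had 0.59 (adjusted p = 0.0744), just past the threshold, and did not meet the criterion without the second array of culture 1 (0.55), the first of culture 2 (0.56) or the third of culture 2 (0.55). ANB1, a translation factor of oxygen-poor cells, had −0.75 (adjusted p = 0.0384). TIR2, another mannoprotein, had −0.73 (adjusted p = 0.0849), with −1.73, −0.30 and −1.26 on the arrays of culture 2, and its mean was −0.57 without the first of these. The genes of this list therefore moved in both directions.

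Chromosomal neighbors were looked up in the R64 table, which gives the order of the genes. Of 65 genes next to a sterol gene and tested, 4 met the criterion, beside the 10.5% of all genes. None of them flanks HES1, ERG2 or ARE2, whose neighbors had means between −0.34 and 0.44.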
